A study of Mus musculus with 15 samples.

Results

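The genes described here are 40 members of the ribosome biogenesis and MYC target programme. They were taken by gene symbol from the 52327 genes of the deposited count table, and all 40 were among the 13199 genes with at least 10 counts in at least 3 libraries, so each was tested. The 15 messenger RNA libraries came from HoxB, a mouse cell line whose cell type the labels give as Blood, and formed 5 groups of 3 replicates. EMPTY cells had control vectors. RUNX1-ETO_ONLY cells carried RUNX1-ETO, the fusion of the transcription factor RUNX1 with the corepressor partner ETO. CSF3R_ONLY cells carried CSF3R-T618I, a mutant form of the G-CSF receptor, through which granulocyte progenitors receive growth and maturation signals. By the labels, both alleles were present in RUNX1-ETO_FIRST and in CSF3R_FIRST, whose names give the allele that came first. Nothing in the labels shows that replicates came from separate cultures, so the p-values measure only how far these samples differ among themselves, and that spread may be technical.

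Ribosomes are made in the nucleolus, where RNA polymerase I transcribes the ribosomal RNA precursor, small nucleolar ribonucleoproteins (snoRNPs) guide its chemical modification, and large sets of assembly factors fold and cut it into the small and the large subunit. MYC, bound to its partner MAX at the E-box sequence CACGTG, is known to raise transcription of many genes of this pathway and of nucleotide synthesis. In the granulocyte lineage, MYC and ribosome production are high in dividing progenitors and decline as cells mature. In bulk RNA, fewer cells with high expression and less RNA per cell cannot be told apart.

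Total counts per library ran from 17007437 to 18178292, and counts of a member in a library from 281 (Pwp2) to 21355 (Ncl). Runx1t1, the gene of the ETO part, had no counts in EMPTY or CSF3R_ONLY and 381 to 812 CPM (counts scaled to a common library size) in the 3 groups with the fusion. The mouse gene Csf3r was at 373 to 465 CPM in EMPTY, 507 to 536 in RUNX1-ETO_ONLY, 618 to 627 in CSF3R_ONLY, 366 to 430.2 in CSF3R_FIRST and 401 to 441 in RUNX1-ETO_FIRST. It was above EMPTY in CSF3R_ONLY, but also in RUNX1-ETO_ONLY, which has no receptor allele by its label, and not in either double group. The level of Csf3r therefore does not show the receptor allele, which rests on the labels in every group labelled with it. Whether transcripts of the introduced receptor were counted under this gene was not given in the sources used here. The leukocyte markers Ptprc, Spn and Laptm5 summed to 1349 to 2748 CPM over all libraries, while Cd3e, Col1a2 and Col3a1, which mark T cells and stromal cells, had no counts in any group. The whole lists of 4 lymphoid and 4 stromal markers did have counts and moved with the groups: the lymphoid sum was 141 to 229 CPM in EMPTY and 31.3 to 36.1 in CSF3R_FIRST, and the stromal sum was 20.5 to 30.7 in EMPTY and 84.2 to 92.8 in RUNX1-ETO_ONLY. The 4 erythroid and megakaryocyte markers in the table summed to 80.2 to 80.9 CPM in EMPTY and 286 to 303 in CSF3R_FIRST. The 6 mature neutrophil markers summed to 433 to 679.7 CPM in EMPTY, 251 to 337 in RUNX1-ETO_ONLY, 3973 to 4265 in CSF3R_ONLY, 513 to 719 in CSF3R_FIRST and 206 to 259 in RUNX1-ETO_FIRST. The 4 primary granule markers summed to 48745 to 56427 CPM in EMPTY, 20171 to 21794 in RUNX1-ETO_ONLY, 31598 to 31947 in CSF3R_ONLY, 17086 to 17783 in CSF3R_FIRST and 16324 to 18506 in RUNX1-ETO_FIRST. The 7 mast cell markers summed to 1590.0 to 2043 CPM in EMPTY, where Fcer1a had no counts, 11561 to 12650.1 in RUNX1-ETO_ONLY, 3237 to 3277 in CSF3R_ONLY, 27053 to 31549.8 in CSF3R_FIRST and 15162 to 18358 in RUNX1-ETO_FIRST. The mast cell sums did not overlap between any of the groups, and the neutrophil and primary granule sums overlapped for some pairs. The part of these marker differences in the members' differences below was not tested.

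A set of 4 libraries stood apart from their groups, namely CSF3R_FIRST replicate 3, EMPTY replicate 3, RUNX1-ETO_FIRST replicate 1 and RUNX1-ETO_ONLY replicate 3. Across genes, their deviation from the group mean fell with coding length, with correlations from -0.51 to -0.32, against -0.06 to 0.42 in the other 11 libraries. The deviations within a group cancel, so a low library makes the others of its group high in part by arithmetic. Members followed the same split: in EMPTY replicate 3 the median deviation was -0.23 on the log2 scale for the 20 members with longer coding sequences and 0.13 for the 20 with shorter ones. Counts of members called are therefore also given without these 4 libraries. That fit has fewer libraries in their groups. The 4 were picked by this same deviation, so a smaller spread without them follows in part from the choice. Values of single genes are from all libraries unless a left-out library is named.

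**Figure D1:**
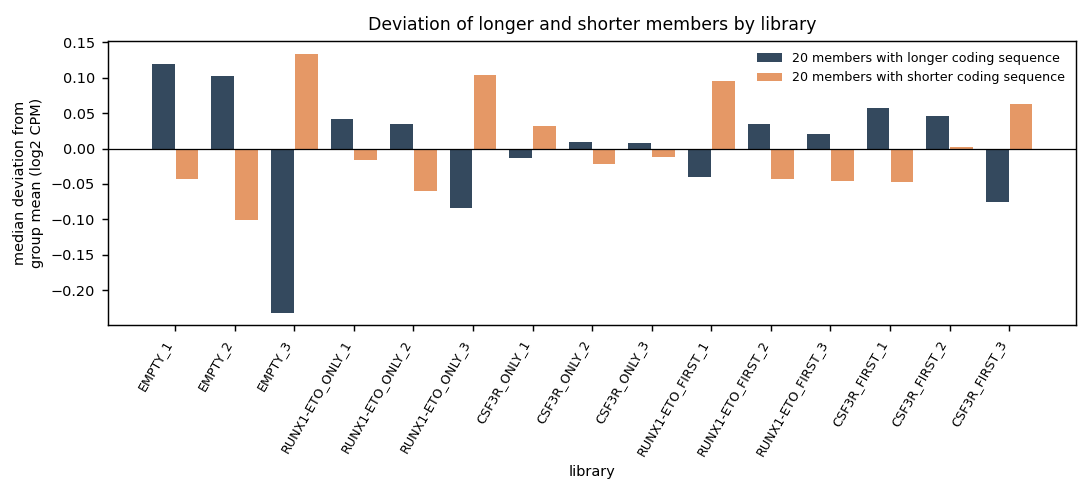
Median deviation of the members from their group mean (log2 CPM, vertical axis) in each of the 15 libraries (horizontal axis), as bars for the 20 members with longer and the 20 with shorter coding sequences. In CSF3R_FIRST replicate 3, EMPTY replicate 3, RUNX1-ETO_FIRST replicate 1 and RUNX1-ETO_ONLY replicate 3 the longer members lie below 0 and the shorter above it.

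The members' summed CPM separated the groups. It was 7035 to 7455 in EMPTY and 7166 to 7275 in RUNX1-ETO_ONLY, 6243 to 6389.9 in RUNX1-ETO_FIRST, 5731 to 5963 in CSF3R_ONLY and 5301 to 5476 in CSF3R_FIRST. EMPTY and RUNX1-ETO_ONLY overlapped, and each of the other 3 groups lay apart from all others. Of the 40 members, 19 had their highest group mean in EMPTY, 20 in RUNX1-ETO_ONLY and 1 in RUNX1-ETO_FIRST, and the lowest mean fell in CSF3R_FIRST for 25 and in CSF3R_ONLY for 15. The highest group mean was 1.08 to 2.01 times the lowest, with a median of 1.44, so the differences were moderate in size. Per kilobase of coding sequence, mean levels in EMPTY ran from 9.53 CPM for Utp20 to 1230.1 CPM for Npm1, the abundant nucleolar chaperone. The median coefficient of variation of a member between replicates was 12.4% in EMPTY and 3.94% in CSF3R_ONLY, and the largest was 37.2%, for Utp20 in EMPTY.

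**Figure D2:**
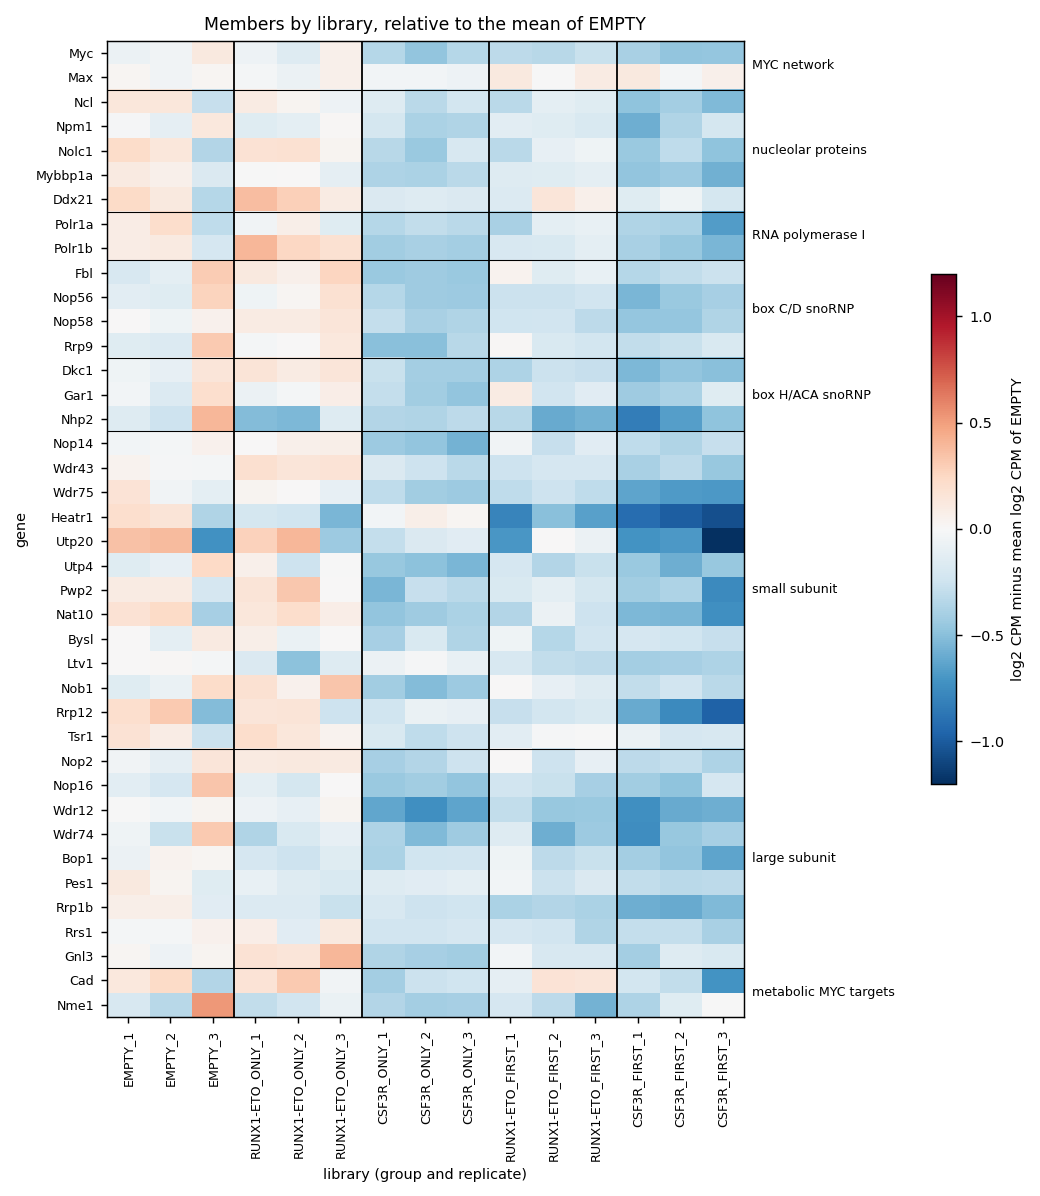
Heat map of the 40 members (rows, grouped by role) in the 15 libraries (columns), as log2 CPM minus the mean log2 CPM of EMPTY. Blue, below EMPTY, fills most of the CSF3R_ONLY and CSF3R_FIRST columns, and Max stays near 0 in all of them.

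Myc (chromosome 15, 61985391 to 61990374, plus strand, mm10), the transcription factor itself, was at 615, 626 and 702 CPM in EMPTY and at 621, 581 and 677 CPM in RUNX1-ETO_ONLY. It was at 510.0, 467 and 509 CPM in CSF3R_ONLY, at 522, 514 and 537 CPM in RUNX1-ETO_FIRST and at 494, 465 and 469 CPM in CSF3R_FIRST. Every library labelled with the receptor allele thus had less Myc mRNA than every library without that label. By edgeR's quasi-likelihood test, Myc in CSF3R_ONLY was lower than in EMPTY by 0.39 on the log2 scale (log2 -0.39, SE 0.0770, adjusted p = 0.00102). The adjusted p-values here and below are Benjamini-Hochberg values over all 13199 genes in the edgeR fit, with a threshold of 0.05. The fusion alone gave log2 -0.05 for Myc, which did not pass the test (adjusted p = 0.649), and the 2 orders of the alleles gave log2 0.14 (adjusted p = 0.238).

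Max (chromosome 12, 76937269 to 76962201, minus strand), the obligate partner of MYC, was at 157, 149 and 156 CPM in EMPTY and at 150.3, 151 and 148 CPM in CSF3R_ONLY. Its levels overlapped between these groups. Over all 9 comparisons its log2 fold change lay between -0.04 and 0.12 and did not pass the test in any of them (adjusted p = 0.262 to 0.929).

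The E-box was looked for in the members' promoter windows, 250 bases before to 50 after the gene start in RefSeq on GRCm38.p6, as the 6 letters CACGTG, which read the same on both strands. Windows were found for 34 of the 40 members, and Rrs1, Myc, Bop1, Rrp12, Fbl and Npm1 had no entry. The motif was present in any window of 10 of the 34 members (29.4%), against 2187 of all 27025 genes with a window (8.09%), expressed or not. A gene with alternative starts could have several windows. In 7 of the 10 members the motif lay after the gene start. The stretches around it are shown in lower case, 5′ to 3′ on the gene's strand, with the E-box in capitals, because this is the letter sequence that the MYC and MAX pair is known to bind.
Mybbp1a: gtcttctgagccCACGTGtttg
Max: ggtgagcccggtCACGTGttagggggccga
Nop2: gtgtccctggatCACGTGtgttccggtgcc
Utp4: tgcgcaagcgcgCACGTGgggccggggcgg
Wdr43: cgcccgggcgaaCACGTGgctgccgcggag
Utp20: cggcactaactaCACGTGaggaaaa
Pes1: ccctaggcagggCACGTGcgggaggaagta
Ltv1: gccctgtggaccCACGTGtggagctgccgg
Tsr1: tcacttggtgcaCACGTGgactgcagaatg
The tenth member is Nme1, which has the motif in 2 windows of alternative starts. The motif began 60 bases before the start in Nop2, 3 before it in Max, and 3, 16, 18, 25, 29, 38 and 41 bases after it in Pes1, Utp4, Wdr43, Tsr1, Ltv1, Utp20 and Mybbp1a. Holding the motif in this window did not go with a larger change: in CSF3R_ONLY against EMPTY, 4 of the 10 members with it were lower, with a median log2 fold change of -0.27, and 19 of the 24 without it, with a median of -0.39. A match is a description of these letters, and no binding was measured.

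With the receptor alone, most members had less mRNA than in the control. In CSF3R_ONLY against EMPTY, 28 of the 40 members fell and 0 rose, where 13.0% of all genes tested fell and 19.9% rose. All 40 had a log2 fold change below 0, and their median was -0.35, against 0.00 for all genes. The libraries of the compared groups did not overlap for 27 of the 40 members, and for 44.7% of all genes. With 1 library left out at a time the number that fell was 21 to 33, and 17 of the 28 calls held in each of the 17 alternative fits. Without the 4 libraries that stood apart 37 fell and 0 rose, where 21.7% of all genes fell and 25.6% rose in that fit.

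Among the large subunit factors, 8 of 9 fell. Wdr12 (chromosome 1, 60069785 to 60098645, minus strand), which with Pes1 and Bop1 forms the PeBoW complex needed for the large subunit, was at 65.4, 64.0 and 67.2 CPM in EMPTY and at 42.6, 39.4 and 42.3 CPM in CSF3R_ONLY. No library of one group came near the other. Wdr12 thus fell by 0.66 on the log2 scale (SE 0.0740, adjusted p = 3.65e-06 by edgeR). Its partner Bop1 fell by 0.28 (adjusted p = 0.0174, and up to 0.0883 without EMPTY replicate 2 or CSF3R_ONLY replicate 1), while Pes1 had log2 -0.14 and did not pass the test (adjusted p = 0.188). The 3 members of one complex were therefore not measured to move by the same amount. Nop16, an assembly factor described as a MYC target, was at 52.5, 49.99 and 72.1 CPM in EMPTY and at 42.2, 42.9 and 41.4 CPM in CSF3R_ONLY. Nop16 fell by 0.46 (SE 0.122, adjusted p = 0.00775), with EMPTY replicate 3 well above the other EMPTY libraries. Gnl3, or nucleostemin, a nucleolar GTPase of dividing stem and progenitor cells, was at 81.8, 76.8 and 82.2 CPM in EMPTY and at 62.5, 60.9 and 60.2 CPM in CSF3R_ONLY. It fell by 0.39 (SE 0.0867, adjusted p = 0.00237), with no overlap.

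Of the 13 small subunit factors, 8 fell. Utp4, part of the complex that joins the precursor as it is transcribed, was at 96.6, 99.6 and 126 CPM in EMPTY and at 78.0, 75.8 and 72.6 CPM in CSF3R_ONLY. Nop14, a component of the small subunit processome, was at 83.1, 83.6 and 88.2 CPM against 62.8, 61.0 and 57.3 CPM. Nob1, the endonuclease that makes the last cut of the small subunit RNA, was at 46.9, 49.0 and 60.4 CPM against 38.7, 36.1 and 38.3 CPM. In each of these 3 genes the groups were fully apart, and they fell by 0.51, 0.49 and 0.47 on the log2 scale (SE 0.103, 0.0722 and 0.0989). The edgeR adjusted p-values were 0.00116, 6.17e-05 and 0.00169. Heatr1, which is needed for polymerase I transcription and early processing, was at 193, 186 and 131 CPM in EMPTY and at 163, 176 and 169 CPM in CSF3R_ONLY, with log2 -0.00, and did not pass. Utp20, Ltv1, Rrp12 and Tsr1 did not pass either, with log2 values of -0.28, -0.06, -0.18 and -0.25.

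Both RNA polymerase I subunits fell. Polr1b, the second largest subunit, was at 67.6, 68.4 and 55.0 CPM in EMPTY and at 47.4, 48.4 and 47.8 CPM in CSF3R_ONLY, with no overlap, and fell by 0.41 (SE 0.0884, adjusted p = 0.00188). Polr1a, the largest subunit, fell by 0.34, with a lesser margin (adjusted p = 0.0470), and its call was lost in 7 of 17 alternatives, among them leaving out EMPTY replicate 1 or 2 or any of the CSF3R_ONLY libraries. All 4 box C/D snoRNP proteins fell, of which Fbl, Nop56 and Nop58 carry out or scaffold 2′-O-methylation. Nop58 was at 123, 118 and 126 CPM in EMPTY and at 100.1, 93.1 and 95.1 CPM in CSF3R_ONLY, and fell by 0.35 (SE 0.0626, adjusted p = 0.000427). The methyltransferase Fbl, its scaffold Nop56 and the U3-binding Rrp9 fell by 0.46, 0.42 and 0.46, with no overlap between the groups in any of the 3. In each of them EMPTY replicate 3 was well above the other EMPTY libraries (for Fbl, 163 CPM against 115 and 121). Their calls held in all alternatives, with log2 values of -0.59 to -0.30, -0.58 to -0.29 and -0.61 to -0.30. Of the box H/ACA proteins, which guide pseudouridylation, Dkc1 (the pseudouridine synthase) and Gar1 fell by 0.36 and 0.40. Nhp2 had log2 -0.37 and did not pass (adjusted p = 0.0749). Of the 5 nucleolar proteins, Mybbp1a, Nolc1 and Npm1 fell by 0.36, 0.34 and 0.32. Ncl and Ddx21 had log2 -0.24 and -0.19 and did not pass. The calls of Npm1 and Gar1 were lost without CSF3R_ONLY replicate 3, that of Npm1 also without CSF3R_ONLY replicate 2, and that of Nolc1 in 7 of 17 alternatives, among them without EMPTY replicate 1 or 2 or CSF3R_ONLY replicate 1 or 2 (highest adjusted p = 0.0746, 0.0577 and 0.188 over all alternatives).

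Other genes of the pathway, outside the 40 members, were counted in the same way. Of 105 tested genes, 45 fell and 4 rose in CSF3R_ONLY, and the 4 that rose were all among the 9 other genes of the MYC network. Mxd1, which competes with MYC for MAX and represses E-box genes, was at 57.7, 59.9 and 48.4 CPM in EMPTY and at 186, 182 and 194 CPM in CSF3R_ONLY. It rose by 1.76 on the log2 scale (SE 0.0929, adjusted p = 5.37e-10), with a wide gap between the groups. Mxi1, another repressor of the same family, rose by 0.64 (adjusted p = 3.69e-06). Mycn, a MYC paralog, rose from 0.0555 to 0.480 CPM to 2.10 to 2.90 CPM (adjusted p = 3.67e-05), levels that were far under those of Myc in all groups. Falls were counted in 15 of 30 other large subunit genes (Noc2l, log2 -0.53), 12 of 26 other small subunit genes (Wdr46, log2 -0.45), 4 of 8 other snoRNP genes (Nop10, log2 -0.78) and 3 of 14 other polymerase I genes (Tcof1, the nucleolar factor mutated in Treacher Collins syndrome, log2 -0.49). Of 18 nucleotide synthesis genes 11 fell, led by the purine synthesis enzymes Atic (log2 -0.62) and Impdh1 (log2 -0.56) and by Shmt2 (log2 -0.56), the mitochondrial serine hydroxymethyltransferase.

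**Figure D3:**
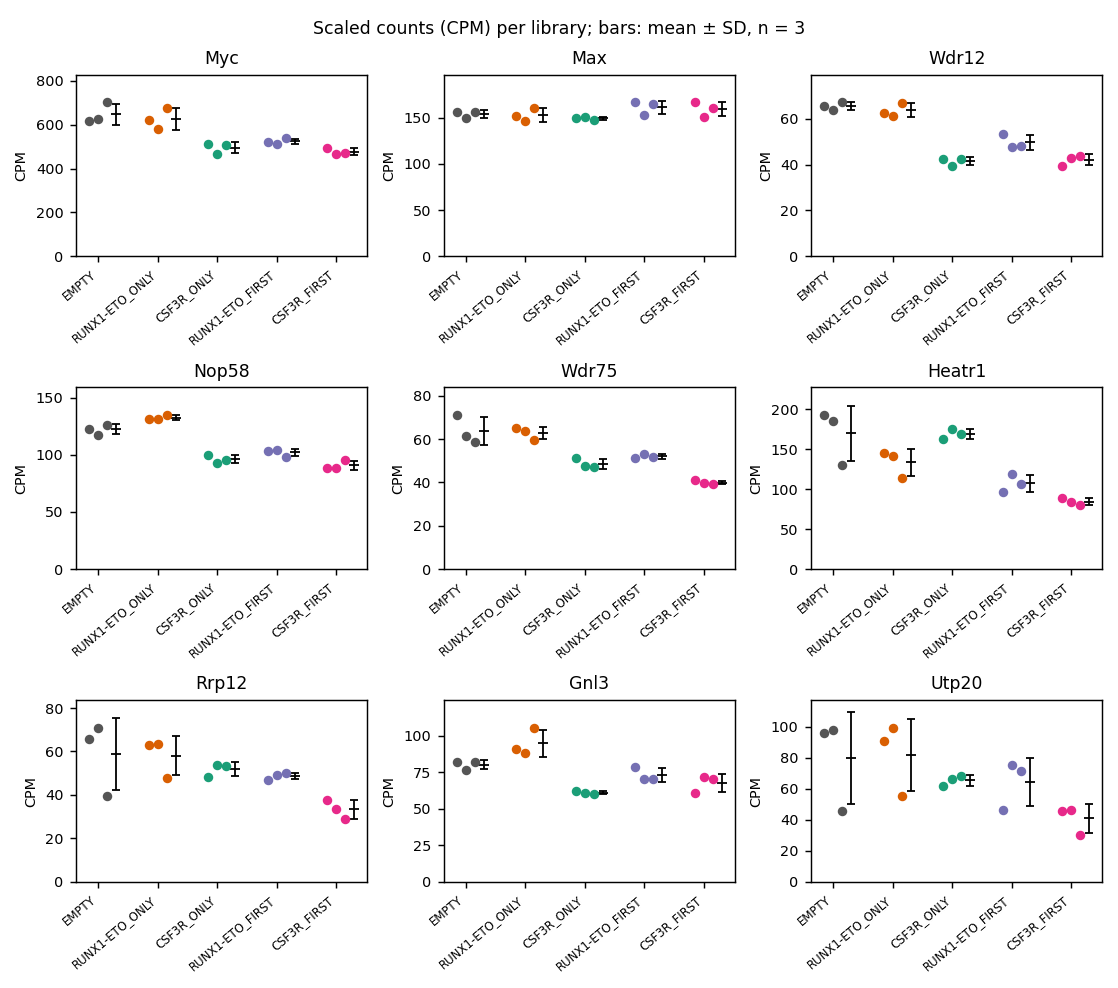
CPM (vertical axes, from 0) of 9 members in each library, with the mean and SD (n = 3) beside the points of each of the 5 groups. Myc, Wdr12, Nop58 and Gnl3 are lower in CSF3R_ONLY than in EMPTY with no overlap, Max is level, and Heatr1, Rrp12 and Utp20 are low in EMPTY replicate 3.

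The order in which the alleles were introduced, the question named by the design, was addressed by RUNX1-ETO_FIRST against CSF3R_FIRST. With the fusion first, 8 of 40 members were higher and 0 lower, where 7.18% of all genes were higher and 11.1% lower. Log2 fold changes were above 0 in 39 of 40 members, Nme1 being the exception, and their median was 0.21 against 0.00 for all genes. The libraries did not overlap for 24 of the 40 members, and for 36.1% of all genes.

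Wdr75, a small subunit factor of the same early complex as Utp4, was at 51.3, 53.3 and 51.6 CPM in RUNX1-ETO_FIRST and at 40.9, 39.7 and 39.3 CPM in CSF3R_FIRST. It was higher by 0.38 on the log2 scale (SE 0.0792, adjusted p = 0.00310 by edgeR). Mybbp1a, a nucleolar protein that binds MYB and takes part in ribosomal RNA processing, was at 554, 557 and 569 CPM against 446, 455 and 414 CPM, and was higher by 0.35 (SE 0.0783, adjusted p = 0.00476). Both were well apart between the groups, and both calls held in all 17 alternatives. Rrp12, an export factor of the small subunit, was at 47.1, 49.0 and 50.2 CPM against 37.5, 33.5 and 29.0 CPM, higher by 0.55 (SE 0.172, adjusted p = 0.0370). Cad, which starts pyrimidine synthesis, was at 241, 291 and 288 CPM against 224, 212 and 158 CPM, higher by 0.46 (SE 0.151, adjusted p = 0.0440). In both genes CSF3R_FIRST replicate 3 was lowest. Polr1b was at 55.5, 55.8 and 58.3 CPM against 48.4, 46.1 and 43.3 CPM, higher by 0.30 (SE 0.0887, adjusted p = 0.0279). Bop1, Wdr12 and Rrp1b were higher by 0.30, 0.24 and 0.20. Myc was at 522, 514 and 537 CPM against 494, 465 and 469 CPM, without overlap, and did not pass the test.

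The number of members called moved with the libraries used. Leaving out RUNX1-ETO_FIRST replicate 1, 2 or 3 left 5, 5 and 2 members higher. Leaving out CSF3R_FIRST replicate 1, 2 or 3 left 4, 2 and 2. Rrp12 and Rrp1b lost their calls whichever of these libraries was left out (edgeR adjusted p up to 0.179 for Rrp12). Cad, Polr1b, Bop1 and Wdr12 each lost theirs without some of these libraries. Without the 4 libraries that stood apart 19 were higher and 0 lower, where 13.7% of all genes were higher and 20.4% lower in that fit, against 7.18% and 11.1% with all libraries. Of the 8 called with all libraries, Bop1 was no longer among them (log2 0.12, adjusted p = 0.127). The pathway genes outside the members moved the same way, with 21 of 105 higher and 2 lower. Of the 18 nucleotide synthesis genes 9 were higher, among them Shmt1 (log2 0.55), Shmt2 (log2 0.40) and Atic (log2 0.39), and the 2 lower genes were the MYC antagonists Mxd1 (log2 -0.70, adjusted p = 6.41e-05) and Mxi1 (log2 -0.36, adjusted p = 0.00237). Mxd1 was at 78.6, 83.8 and 83.9 CPM in RUNX1-ETO_FIRST and at 137, 138 and 125 CPM in CSF3R_FIRST.

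**Figure D4:**
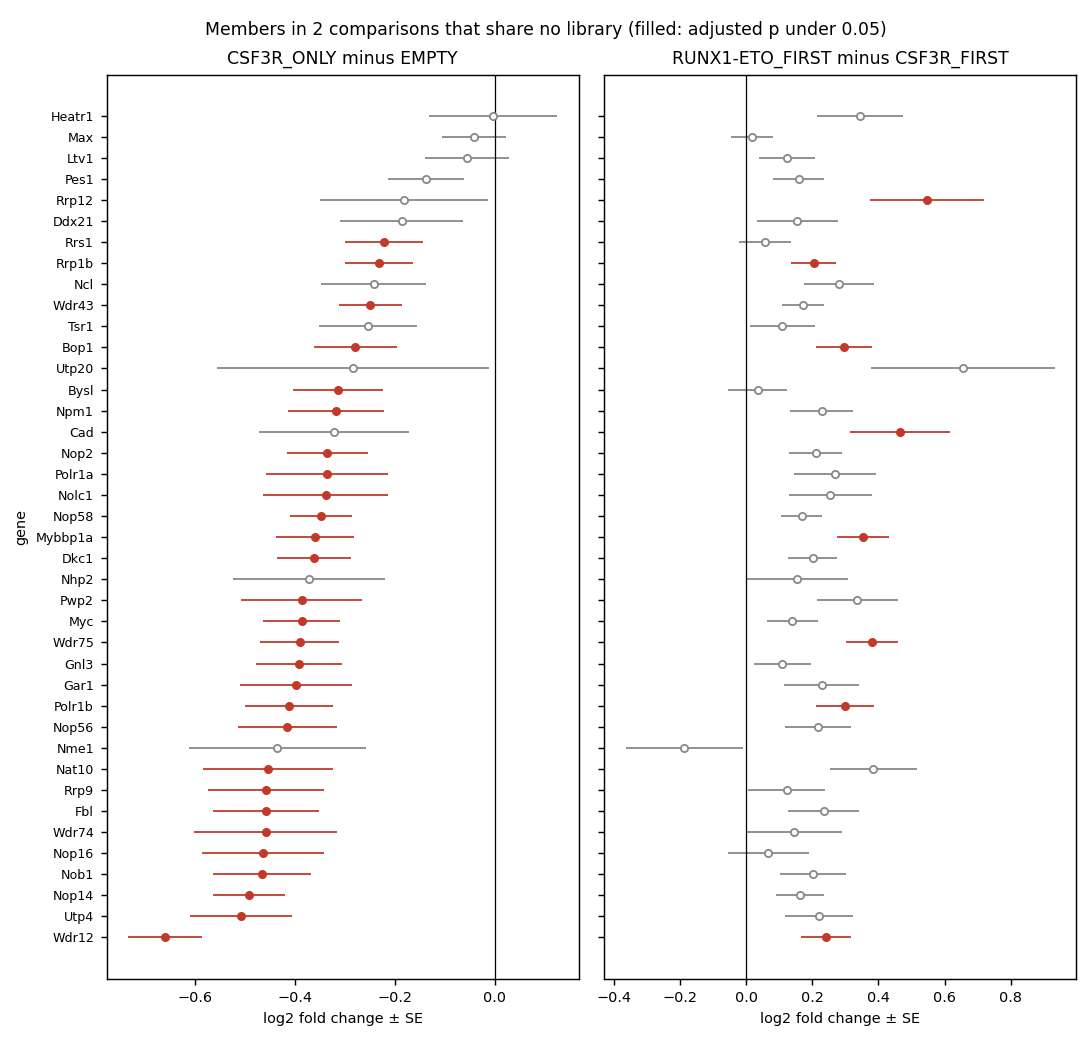
Log2 fold change with its SE (horizontal axes, which differ in range) of each member (rows) in CSF3R_ONLY minus EMPTY, left, and RUNX1-ETO_FIRST minus CSF3R_FIRST, right; filled points passed the test. All 40 points lie below 0 on the left, where 28 passed, and 39 of 40 lie above 0 on the right, where 8 passed.

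With the fusion alone few members passed the test, and how many passed in each direction depended on the processing. In RUNX1-ETO_ONLY against EMPTY, 3 members were higher and 4 lower, where 20.8% of all genes were higher and 18.1% lower, and the members' median of 0.01 was that of all genes (0.01), with 20 members on each side of 0. The libraries did not overlap for 7 members and for 43.7% of all genes. Polr1b was at 83.8, 75.0 and 72.0 CPM in RUNX1-ETO_ONLY and at 67.6, 68.4 and 55.0 CPM in EMPTY, higher by 0.27 (SE 0.0874, adjusted p = 0.0218). Gnl3 was at 90.8, 88.6 and 105 CPM against 81.8, 76.8 and 82.2 CPM, higher by 0.24 (adjusted p = 0.0364). Wdr43, a small subunit factor, was higher by 0.17 (adjusted p = 0.0495). In these 3 genes the groups did not overlap. Ltv1, a factor of late small subunit assembly, was at 45.3, 36.3 and 45.9 CPM against 51.2, 51.6 and 50.2 CPM, lower with log2 -0.26 (SE 0.0835, adjusted p = 0.0207). Nhp2 was at 91.4, 90.5 and 118 CPM against 118, 111 and 174 CPM, and Heatr1 at 145, 141 and 114 CPM against 193, 186 and 131 CPM. The groups overlapped in both Nhp2 (log2 -0.42, adjusted p = 0.0391) and Heatr1 (log2 -0.35, adjusted p = 0.0448). Rrp1b was lower with log2 -0.20 (adjusted p = 0.0277).

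None of these 7 calls held in all 17 alternatives. The number higher was 1 without EMPTY replicate 2, RUNX1-ETO_ONLY replicate 1 or RUNX1-ETO_ONLY replicate 3, and the number lower was 2 without EMPTY replicate 1 or 2 or RUNX1-ETO_ONLY replicate 3 and 1 without RUNX1-ETO_ONLY replicate 2. With the replicate number as a block, Wdr43 lost its call (edgeR adjusted p = 0.0561). Scaled by library sizes alone, 6 were higher and 0 lower, where 24.9% of all genes were higher and 15.1% lower. With an offset for coding length, 0 were higher and 9 lower, where 18.7% of all genes were higher and 26.8% lower. In that fit 9 members lay above 0 and 31 below, with a median of -0.09, and with the block and the offset 0 were higher and 10 lower. Without the 4 libraries that stood apart 7 were higher and 7 lower, where 24.6% of all genes were higher and 24.1% lower. Within the MYC network, Mxd4, a MAX-binding repressor, was higher (log2 1.24, adjusted p = 8.32e-10), and Mlx, the MAX-like partner, and Mxd1 were lower (log2 -1.16 and -0.84, adjusted p = 3.52e-07 and 2.61e-06). Of 18 nucleotide synthesis genes 2 were higher and 6 lower. Tyms, the thymidylate synthase, was higher (log2 0.96), and Umps, which completes pyrimidine synthesis, was lower at 85.8, 83.0 and 90.2 CPM against 143, 139 and 137 CPM (log2 -0.69, adjusted p = 3.33e-07). Mphosph10, a small subunit processome protein, was lower at 45.7, 47.2 and 47.9 CPM against 75.3, 71.8 and 78.4 CPM (log2 -0.68, adjusted p = 1.20e-06).

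Adding the receptor to cells that already had the fusion was addressed by RUNX1-ETO_FIRST against RUNX1-ETO_ONLY. Here 10 members were lower and 0 higher, where 10.3% of all genes were lower and 15.9% higher, and 39 of 40 had log2 values below 0, with a median of -0.22 against -0.02 for all genes. The libraries did not overlap for 22 members and for 41.9% of all genes. Polr1b was at 55.5, 55.8 and 58.3 CPM in RUNX1-ETO_FIRST and at 83.8, 75.0 and 72.0 CPM in RUNX1-ETO_ONLY, lower with log2 -0.45 (SE 0.0877, adjusted p = 0.00127). Dkc1 was at 86.8, 93.7 and 92.5 CPM against 125, 119.7 and 124 CPM, lower with log2 -0.43 (SE 0.0735, adjusted p = 0.000364). Nop58 was at 104, 105 and 98.3 CPM against 131, 131 and 135 CPM, lower with log2 -0.37 (SE 0.0625, adjusted p = 0.000320). In all 3 the groups were fully apart. Wdr43, Gnl3 and Wdr12 were lower with log2 -0.38, -0.38 and -0.36, and Nop56, Rrs1 and Wdr75 with log2 -0.30, -0.29 and -0.27. Nop56 lost its call without any 1 of the RUNX1-ETO_FIRST libraries or RUNX1-ETO_ONLY replicate 2 or 3 (adjusted p up to 0.139). Rrs1 lost it without RUNX1-ETO_ONLY replicate 1 or 3 or RUNX1-ETO_FIRST replicate 3 (up to 0.0611), and Wdr75 with no filter and without RUNX1-ETO_ONLY replicate 1 or 2 or RUNX1-ETO_FIRST replicate 1 or 3 (up to 0.0660). Myc was lower with log2 -0.26 (adjusted p = 0.0221), a call that was lost without RUNX1-ETO_ONLY replicate 1 or 3 or RUNX1-ETO_FIRST replicate 1 or 2 (adjusted p = 0.0514 to 0.101). Mxd1 was higher at 78.6, 83.8 and 83.9 CPM against 33.9, 31.4 and 27.4 CPM (log2 1.41, adjusted p = 1.87e-08), and Mycn was higher as well (log2 3.50). Of the 105 pathway genes 26 were lower and 5 higher. The number of members lower was 7 to 10 with 1 library left out. It was 29 without the 4 libraries that stood apart, where 18.5% of all genes were lower in that fit.

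Adding the fusion to cells that already had the receptor was addressed by CSF3R_FIRST against CSF3R_ONLY, which shares no library with the preceding comparison. Here 6 members were lower and 0 higher, where 22.5% of all genes were lower and 22.2% higher, a smaller share than among all genes, and the median was -0.08 against -0.02. The libraries did not overlap for 20 members and for 61.3% of all genes. Heatr1 (chromosome 13, 12395027 to 12440289, plus strand) was at 88.6, 84.0 and 80.6 CPM in CSF3R_FIRST and at 163, 176 and 169 CPM in CSF3R_ONLY, 2.01-fold lower (SE 0.131 on the log2 scale, adjusted p = 1.09e-05), with a wide gap between the groups. Rrp12 was at 37.5, 33.5 and 29.0 CPM against 48.2, 53.9 and 53.4 CPM, lower with log2 -0.64 (SE 0.172, adjusted p = 0.00658). Ltv1 was at 38.5, 38.8 and 39.5 CPM against 48.7, 50.5 and 48.1 CPM, lower with log2 -0.33 (SE 0.0842, adjusted p = 0.00409). Rrp1b, Wdr75 and Bop1 were lower with log2 -0.35, -0.28 and -0.23. The groups did not overlap in any of these 6, and 4 of them were small subunit factors. Wdr75 lost its call without CSF3R_FIRST replicate 2 (edgeR adjusted p = 0.0513) and with no filter (edgeR adjusted p = 0.0682). Bop1 lost its call in 8 of 17 alternatives, among them without any 1 of the CSF3R_FIRST libraries or CSF3R_ONLY replicate 2 or 3. With DESeq2 size factors in edgeR, 5 were lower and 1 higher. Leaving out the 4 libraries that stood apart gave 10 lower and 4 higher, where 28.9% of all genes were lower and 29.5% higher. The only higher counts with 1 library left out were 1 member each without CSF3R_FIRST replicate 1 or 2. Of the 105 pathway genes 30 were lower and 6 higher: Mphosph10 (log2 -0.89), Shmt1 (log2 -0.73) and Umps (log2 -0.71) were lower, and Mxd4 was higher (log2 1.48).

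Both double groups were also compared with EMPTY, which they share as control with the single-allele comparisons. In CSF3R_FIRST 35 members fell and 0 rose, where 26.5% of all genes fell and 26.7% rose, and the median was -0.43 against -0.05. The libraries did not overlap for 31 members and for 53.9% of all genes. In RUNX1-ETO_FIRST 15 fell and 0 rose, where 20.1% of all genes fell and 23.7% rose, and the median was -0.21 against -0.02. The libraries did not overlap for 16 members and for 47.9% of all genes. The 15 that fell in RUNX1-ETO_FIRST were all among the 35, and Max, Ddx21, Rrp9, Tsr1 and Nme1 passed in neither. Without the 4 libraries that stood apart 35 fell in CSF3R_FIRST and 28 in RUNX1-ETO_FIRST, and 0 rose in either, where 32.0% and 27.1% of all genes fell. In a fit of only the compared groups, 3 fell in RUNX1-ETO_FIRST, where 14.0% of all genes fell.

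Heatr1 was the member with the lowest log2 value in both, with log2 -1.01 (SE 0.131, adjusted p = 8.17e-06) in CSF3R_FIRST and log2 -0.66 (SE 0.129, adjusted p = 0.000587) in RUNX1-ETO_FIRST, where it was at 96.2, 118 and 107 CPM. Wdr75 was at 40.9, 39.7 and 39.3 CPM in CSF3R_FIRST against 71.1, 61.6 and 58.5 CPM in EMPTY (log2 -0.67, SE 0.0791, adjusted p = 2.76e-06). Rrp12 had log2 -0.82 there (SE 0.172, adjusted p = 0.000813), Utp20 log2 -0.96 (SE 0.278, adjusted p = 0.00841) and Nhp2 log2 -0.68 (SE 0.154, adjusted p = 0.00148). Utp20, a large scaffold of small subunit processing, was at 45.7, 46.7 and 30.4 CPM against 96.0, 97.8 and 45.5 CPM. The groups overlapped in Utp20, with EMPTY replicate 3 inside the range of CSF3R_FIRST, and its call was lost with no filter (adjusted p = 0.0541). In RUNX1-ETO_FIRST, Nhp2, Wdr74, Wdr12 and Rrp1b fell by 0.53, 0.40, 0.40 and 0.37 on the log2 scale. Wdr74, a large subunit factor, overlapped between the groups and lost its call without EMPTY replicate 3 or RUNX1-ETO_FIRST replicate 2 or 3 (adjusted p = 0.0801 to 0.141). Myc fell by 0.45 (adjusted p = 0.000150) in CSF3R_FIRST and by 0.31 (adjusted p = 0.00438) in RUNX1-ETO_FIRST. Among pathway genes 69 of 105 fell and 6 rose in CSF3R_FIRST, and 36 fell and 5 rose in RUNX1-ETO_FIRST. Umps was at 59.0, 62.3 and 57.5 CPM in CSF3R_FIRST and at 70.0, 65.8 and 63.7 CPM in RUNX1-ETO_FIRST, against 143, 139 and 137 CPM in EMPTY (log2 -1.23 and -1.07). Umps was lower in every library of both groups than in any EMPTY library.

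Whether both alleles together gave the sum of their single effects was tested on the log2 scale, by setting each double group against the sum of the changes in the single groups. With the fusion first, 0 members were called in either direction by edgeR, where 6.34% of all genes were above and 9.39% below the sum. At an unadjusted p under 0.05, 4 members were above and 0 below, where 11.7% of all genes were above and 16.1% below. DESeq2 called 2 above, where it called 8.19% of all genes above. The median of the 40 members was 0.12, against -0.02 for all genes. With the receptor first, 2 members lay below the sum and 0 above, where 12.4% of all genes were below and 10.3% above. These were Heatr1 (log2 -0.66, SE 0.183, adjusted p = 0.0160) and Wdr43 (log2 -0.31, SE 0.0903, adjusted p = 0.0224). For Heatr1, the receptor alone gave log2 -0.00 and the fusion alone log2 -0.35, while CSF3R_FIRST had log2 -1.01 against EMPTY. For Wdr43, the receptor alone gave log2 -0.25 and the fusion alone log2 0.17, while CSF3R_FIRST had log2 -0.39. The number below the sum was 4 without EMPTY replicate 2, 0 without CSF3R_FIRST replicate 3, and 1 without RUNX1-ETO_ONLY replicate 1, CSF3R_ONLY replicate 1, CSF3R_FIRST replicate 1 or CSF3R_FIRST replicate 2. Without the 4 libraries that stood apart, 9 members were above the sum with the fusion first, where 12.1% of all genes were above it. In the same fit 5 were below it with the receptor first, where 17.1% of all genes were below.

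**Figure D5:**
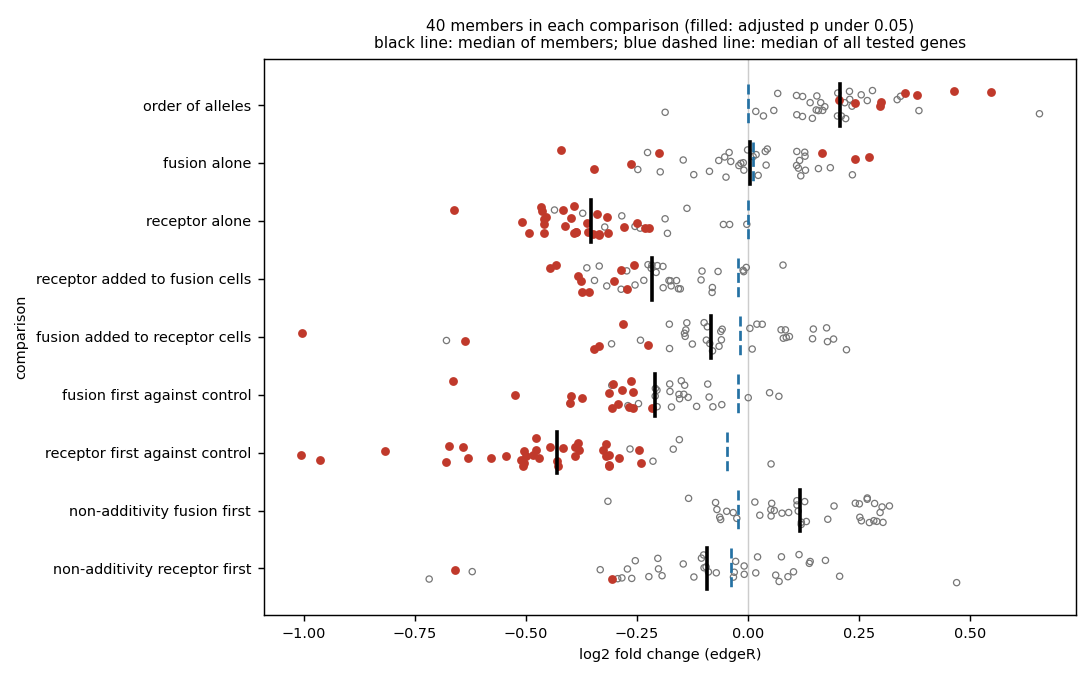
Log2 fold change (horizontal axis) of the 40 members in each of the 9 comparisons (rows); filled points passed the test, black lines are the members' medians and blue dashed lines the medians of all tested genes. The members' median is -0.35 for the receptor alone, 0.01 for the fusion alone and 0.21 for the order of the alleles.

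Counting limits a few members. Nme1, a nucleoside diphosphate kinase, shares exons on the same strand with Gm20390, and how shared reads were counted was not given in the sources used here, so its values are uncertain. Npm1 has processed pseudogenes that could share its reads. The exons of 12 members overlap exons of a gene on the other strand, among them Mybbp1a with Spns2, Nop56 with Idh3b, Dkc1 with Mpp1, Nhp2 with Rmnd5b and Gnl3 with Pbrm1, and the counting's strand setting was not stated there either.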

How the data were processed

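The authors deposited raw read counts for each gene symbol in a single table, whose columns are the 15 libraries. Per the labels' protocols, the RNA was DNase-treated on the column and made into strand-specific mRNA libraries for a BGI DNBSEQ instrument. Trimmomatic, STAR, DESeq2 and mm10 appear in the submitters' processing notes, with no role or version. The counting program, annotation and strand setting were not given in the sources used here. The row naming no gene (0.0179% to 0.0305% of counts) was left out. Genes with 10 or more counts in at least 3 libraries were fitted together in edgeR 4.0.16 (R 4.3.3): TMM factors 0.921 to 1.09, 5 group means, 10 residual degrees of freedom, robust quasi-likelihood F tests, Benjamini-Hochberg adjustment over 13199 genes, threshold 0.05. SE is the log2 fold change divided by the root of F. The fit was tested on simulated data. CPM values use the TMM factors. Same-numbered libraries deviated together, with all 3 correlations over 0.1, for 2 of the 10 pairs of groups: EMPTY with RUNX1-ETO_ONLY (0.27 to 0.45) and EMPTY with CSF3R_FIRST (0.14 to 0.36). Replicate 3 of these groups is among the 4 libraries that stood apart. The labels name nothing that same-numbered libraries share. Whether they form pairs, or the correlations come only from replicate 3 standing apart, was not tested. Coding length is the longest coding sequence in GENCODE M21 (mm10). E-box windows are RefSeq's, on GRCm38.p6. The members and lists were chosen with earlier results of these data known. Values were given for Myc, Max and the 5 largest rises and falls per comparison, with up to 3 genes per pathway list; other genes were named after their values were seen. Polr1f and Polr1h are the table's symbols for Twistnb and Znrd1, and Mycl was under the filter. Alternatives were DESeq2 1.42.0 (size factors, test), library sizes alone, other filters, limma 3.58.1 voom with sample weights, a replicate block, an offset for coding length, only the compared groups, and libraries left out.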

Additional observations from a re-analysis of the deposited data

Results flagged for a closer look

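With the receptor first, the fusion's effect differed past the threshold between cells with and without the receptor for 2 of the 40 members. Both lay below the sum of the single effects, where 12.4% of all genes lay below it and 10.3% above. This was a smaller share than among all genes. Heatr1 lay below the sum of the single effects by log2 -0.66 (edgeR adjusted p = 0.0160), at 88.6, 84.0 and 80.6 CPM in CSF3R_FIRST, and was lower than CSF3R_ONLY in all 3 libraries. Its call was lost without CSF3R_FIRST replicate 2 or 3 (adjusted p = 0.0505 and 0.0576). Wdr43 lay below the sum by log2 -0.31 (edgeR adjusted p = 0.0224), at 85.7, 90.3 and 81.9 CPM in CSF3R_FIRST, and its call was lost in 9 of 23 alternatives, among them leaving out EMPTY replicate 3 (adjusted p = 0.0582) and CSF3R_FIRST replicate 3 (adjusted p = 0.112).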

How the results depend on the processing

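The counts of members in CSF3R_ONLY and in CSF3R_FIRST against EMPTY stayed within 1.5 times under all alternatives run. For the order of alleles the number higher was 25 with library sizes alone, 2 with no filter, 24 with voom, 18 with the length offset, 18 with block and offset, 19 without the 4 libraries and 16 with only the compared groups, and 2 to 5 with 1 library left out. For the fusion alone the numbers higher and lower were 6 and 0 with library sizes alone, 0 and 2 with no filter, 0 and 9 with the length offset, 0 and 10 with block and offset, 7 and 7 without the 4 libraries and 0 and 0 with only the compared groups. With voom 7 were higher, and with 1 library left out 1 to 4 were higher and 1 to 4 lower. For the receptor added, the number lower was 25, 27, 25, 26 and 29 with library sizes alone, voom, the offset, block and offset, and without the 4 libraries. For the fusion added, 1, 1, 3, 4 and 5 were higher with DESeq2 size factors, the DESeq2 test, voom, without the 4 libraries and with only the compared groups, and 13, 11, 11, 11, 10 and 10 were lower with library sizes alone, voom, the offset, block and offset, without the 4 libraries and with only the compared groups. With 1 library left out 0 to 1 were higher. For RUNX1-ETO_FIRST against EMPTY the number lower was 26 with voom, 37 with the offset, 37 with block and offset, 28 without the 4 libraries and 3 with only the compared groups, and 10 to 22 with 1 library left out. For the sum with the fusion first, 2, 2, 5, 7, 8 and 9 were above it with DESeq2 size factors, the DESeq2 test, voom, the offset, block and offset, and without the 4 libraries, and 0 to 1 with 1 library left out. For the sum with the receptor first, 7, 1, 6, 5 and 1 were below it with library sizes alone, no filter, voom, without the 4 libraries and with only the compared groups, and 0 to 4 with 1 library left out. The share of all genes called also changed with the fit, and it is given above for only some of these fits. A count given here without that share therefore cannot be set against all genes, and shows only how the count moved. The cause of these changes was not tested.

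Library sizes alone moved the median of all genes by -0.16 to 0.10. A change of scaling shifts all genes of a comparison by nearly the same amount. The members' median relative to that of all genes therefore could not move, and is no check of the scaling. With the number as a replicate block, 10 members were higher for the order of alleles, 28 lower for the receptor alone and 13 for the receptor added, with each count of members within 1.5 times of the unblocked one. It ended the calls of Wdr43 for the fusion alone and of Rrp1b for the order of alleles (edgeR adjusted p = 0.0561 and 0.0536). The call of Nolc1 for the receptor alone ended as well (edgeR adjusted p = 0.0555), and no other member's did. Among these comparisons, same-numbered libraries deviated together only for the fusion alone. Among the named members, 653 of the values under an alternative kept their direction and side of the threshold and 90 kept direction and lost the call. The lowest member count in a library was 281. Across the tested genes with enough counts, replicates of a group differed by more than counting error. The chi-square per degree of freedom ran from 2.45 (CSF3R_ONLY replicates 2 and 3) to 75.0 (EMPTY replicates 2 and 3). The part of counting error in the members' own spread was not tested, and the number of libraries per group limits the precision.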
